A study of Mus musculus with 36 samples.

Results

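The 39 Hox cluster genes are the transcription factor genes whose symbol consists of Hox, a cluster letter from a to d and a paralog number. They were taken by symbol alone from the 20325 genes of the expression tables, though with earlier results of these data known. Cluster A held 11 members, cluster B 10, cluster C 9 and cluster D 9.

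Each Hox cluster is a row of homeobox genes that lie side by side and are read in the same direction. Genes with low paralog numbers act nearer the head, and genes with high numbers act in the lower trunk, the tail and the outer limb. Fibroblasts keep a pattern of Hox expression that reflects where in the body they came from. Trithorax and MLL proteins maintain active Hox genes, and Polycomb proteins keep silent ones off. DOT1L, a histone methyltransferase of transcribed genes, is known for sustaining posterior HoxA genes and Meis1 in MLL-rearranged leukaemia. Below, paralogs 1 to 3 are called anterior, 4 to 8 central and 9 to 13 posterior.

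The study asked how inhibiting DOT1L with the compound SGC0946 alters gene expression while mouse embryonic fibroblasts (MEFs) are reprogrammed towards pluripotency. The MEFs came from E13.5 embryos. They were homozygous for a doxycycline-inducible cassette of Oct4, Klf4, Sox2 and c-Myc at Col1a1 and heterozygous for the reverse tetracycline transactivator at Rosa26. Polyadenylated RNA was sequenced in 36 libraries, 2 for each of 18 groups. Nothing in the labels states whether both libraries of a group derive from distinct cultures or embryos. The p-values therefore speak to the spread between these samples alone, which may be technical.

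The timecourse comprised untreated MEFs and cells after 2 or 4 days of doxycycline. Day 2 cells had received DMSO (control) or SGC0946. Day 4 cells had received DMSO, or SGC0946 from day 0 to 2 (early window), from day 2 to 4 (mid window) or from day 0 to 4 (full window). For the sort experiment, doxycycline ran for 3.5 days before cells without and with E-cadherin on their surface (CDH1- and CDH1+) were sorted, and both fractions stayed on doxycycline to day 5.5 with DMSO or SGC0946. The lentivirus experiment comprised MEFs with an empty or a Cdh1 lentivirus, and day 2 doxycycline cells with each virus, given DMSO or SGC0946. V6.5 mouse embryonic stem cells (ESCs), which the labels describe as depleted of feeders 24 h before harvest, were the pluripotent reference. For 1 library, replicate 2 of MEFs given Cdh1, the source field names day 2 cells while title and treatment name MEFs, and it was kept with the MEFs.

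Expected counts per library summed to between 32.9 and 50.9 M in the timecourse, 34.9 and 43.1 M in the sort, 18.5 and 35.9 M in the lentivirus libraries, and 30.7 and 35.2 M in the ESCs (M, mega). The members together held between 10321 and 17765 of these counts in the timecourse, 8509 and 10104 in the sort, 6151 and 13357 in the lentivirus libraries, and 499 and 595 in the ESCs. The kit does not mark strand, and 10 members overlap exons of antisense genes in the annotation (among them Hoxa3, Hoxa4, Hoxa7, Hoxa11, Hoxb2, Hoxb3, Hoxb5, Hoxd3 and Hoxd4). Hoxc5 with Hoxc10 and Hoxd3 with Hoxd4 share exon sequence on the same strand. The levels of these members are uncertain to that extent.

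Feeder MEFs lay under the reprogramming cells and the ESCs, and their RNA cannot be told apart from that of the cells studied. Summed TPM (RSEM's transcript abundance, a level scaled by gene length and library) of 4 Y-linked genes, chosen after the values were seen, was 0.17 and 0.16 in timecourse MEFs, 6.19 and 5.09 in day 2 controls and 2.29 and 1.82 in day 4 controls. Timecourse MEFs were thus nearly without the Y-linked RNA that the cells compared with them contained. Within a time point the inhibitor libraries were near their controls, with 6.03 and 5.84 at day 2 and 1.72 and 2.06 in the full window. In bulk RNA, fewer cells of a type and less RNA per cell cannot be told apart.

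Promoter windows from RefSeq (GRCm38.p6, 250 bases before to 50 after a gene's start) matched 22 of the 39 members with 24 windows. The following windows are shown because these HoxD genes, close to each other, differed in the direction of their change with the inhibitor. Capitals mark each CG dinucleotide, the letters at which DNA methylation occurs. All are printed on the plus strand, at chr2:74674763-74675062 (Hoxd12), chr2:74697513-74697812 (Hoxd9) and chr2:74704365-74704664 (Hoxd8).
Hoxd12: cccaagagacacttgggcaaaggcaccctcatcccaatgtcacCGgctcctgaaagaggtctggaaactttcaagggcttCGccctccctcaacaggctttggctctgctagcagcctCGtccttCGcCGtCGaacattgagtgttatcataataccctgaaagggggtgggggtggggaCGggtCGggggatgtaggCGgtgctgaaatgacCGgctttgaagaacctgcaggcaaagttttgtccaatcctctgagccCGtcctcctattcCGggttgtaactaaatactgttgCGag
Hoxd9: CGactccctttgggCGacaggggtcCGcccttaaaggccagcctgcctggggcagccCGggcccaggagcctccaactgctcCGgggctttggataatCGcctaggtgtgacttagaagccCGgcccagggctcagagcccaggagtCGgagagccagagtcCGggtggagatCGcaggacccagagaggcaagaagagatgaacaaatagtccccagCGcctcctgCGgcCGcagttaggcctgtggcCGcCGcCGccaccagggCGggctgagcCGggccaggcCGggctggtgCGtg
Hoxd8: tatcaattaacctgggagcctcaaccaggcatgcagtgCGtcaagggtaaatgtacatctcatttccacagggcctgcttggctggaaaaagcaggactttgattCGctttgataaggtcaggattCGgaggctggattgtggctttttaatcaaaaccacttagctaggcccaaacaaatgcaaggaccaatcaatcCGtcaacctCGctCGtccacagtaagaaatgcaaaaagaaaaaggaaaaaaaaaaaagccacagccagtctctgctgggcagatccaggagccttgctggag
The motif searched was CG, which reads the same on both strands. Hoxd12 held 13 CG, Hoxd9 held 20 and Hoxd8 held 6. The 24 Hox windows held a median of 14.5 CG (range 4 to 45) against 7 over all 32851 windows, of which 94.6% held at least 1, and 20 of the 24 were above that median. TATAAA, searched on both strands, was in 4 Hox windows (16.7%) and in 13.6% of all windows.

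MEFs of the timecourse expressed 36 of the 39 members at 1 TPM or more in both libraries. In cluster A the highest levels were those of Hoxa10, a gene of the lower trunk and limb, at 23.6 and 21.6 TPM, of Hoxa11, a forearm and uterine gene, at 14.6 and 14.6 TPM, and of Hoxa7 at 7.02 and 6.89 TPM. In cluster B, Hoxb9, a thoracic gene, led with 37.5 and 37.5 TPM, ahead of Hoxb2 with 16.1 and 16.6 TPM and Hoxb6 with 13.7 and 12.7 TPM. The order of these members was the same in both libraries.

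Cluster C was led by the thoracic genes Hoxc6, with 33.6 and 32.5 TPM, and Hoxc8, with 28.1 and 27.1 TPM, followed by Hoxc10, a lumbar and hindlimb gene, with 19.8 and 19.1 TPM. In cluster D the highest level was at the posterior end, in Hoxd13, a gene of the digits, with 22.2 and 21.9 TPM. Hoxd8 with 7.86 and 10.1 TPM and Hoxd11 with 5.17 and 4.74 TPM came next. Of the summed Hox TPM in the 2 libraries, HoxC took 35.7% and 34.2%, HoxB 29.6% and 30.0%, HoxA 21.0% and 21.1% and HoxD 13.7% and 14.7%. Posterior members took 49.4% and 48.5%.

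The MEFs with the empty lentivirus belonged to another experiment, and their levels are set beside these with no test, since the experiments were fitted separately. TPM was not computed alike in both. Gene length exceeded the effective length by a mean of 59.9 and 62.8 bases in timecourse MEFs and by 0 in lentivirus MEFs. Macrophage markers summed to 352 and 357 TPM in the former and 2732 and 2985 TPM in the latter. The part of these differences in the Hox levels was not tested. In the lentivirus MEFs Hoxd13 stood at 7.43 and 6.96 TPM, Hoxa5, a gene of the neck and lung, at 18.6 and 18.3 TPM against 6.77 and 6.71 TPM in the timecourse, and Hoxd8 at 32.1 and 37.9 TPM. As deposited, TPM of Hoxd13 was lower in both lentivirus libraries than in the timecourse MEFs, and that of Hoxa5 and Hoxd8 was higher. Posterior members took 37.2% and 36.1% of Hox TPM in the lentivirus MEFs.

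**Figure D1:**
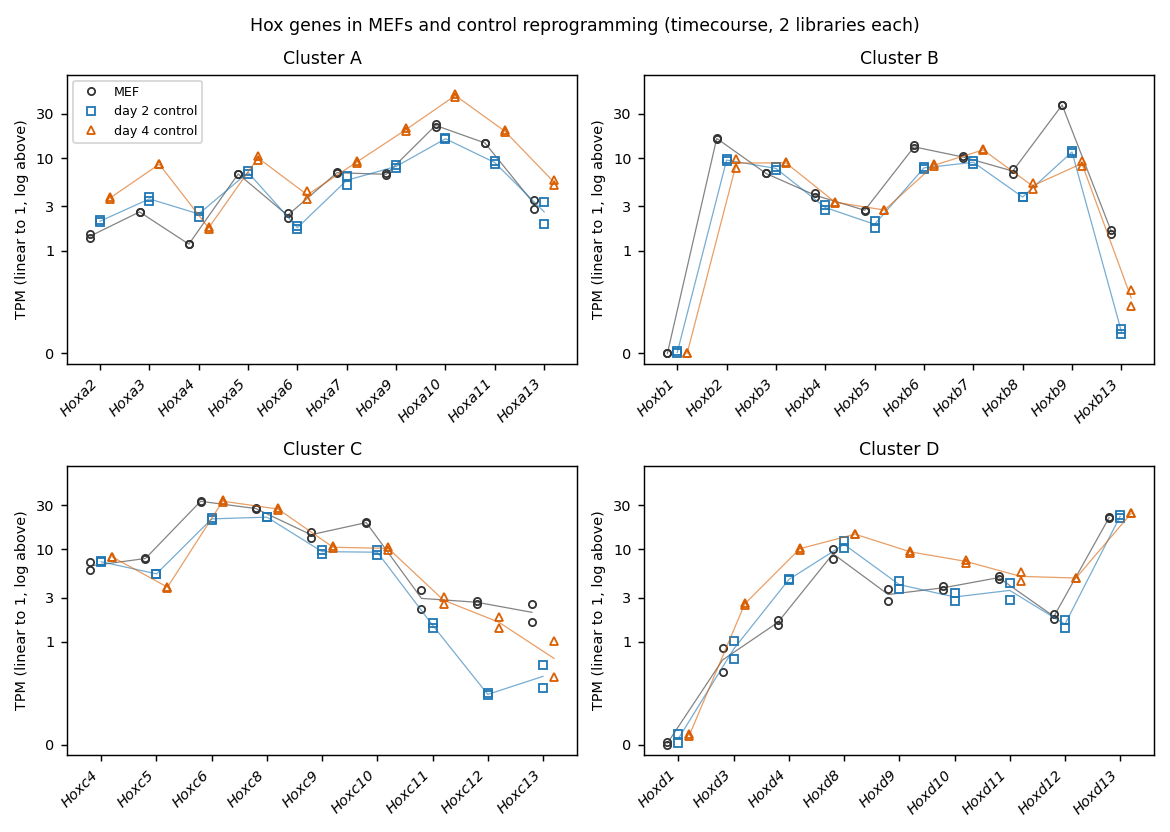
Level of 38 members in TPM (vertical axis, linear up to 1 and logarithmic above) by cluster and paralog (horizontal axis) in timecourse MEFs, day 2 controls and day 4 controls. Hoxb9 is highest in MEFs, at 37.5 and 37.5 TPM, and lower at day 2 and day 4, while Hoxa10 is lowest at day 2 and highest at day 4.

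From MEFs to day 2 controls, 20 of 37 tested members fell and 8 rose. The share of members called, 75.7%, was near that of all genes tested, 74.4% (34% lower and 40.4% higher). All members called in HoxB and HoxC fell (7 of 9 and 8 of 9 tested). In HoxA 3 fell and 5 rose, and in HoxD 2 fell and 3 rose. Of posterior members 11 of 16 fell and 2 rose, and of anterior members 1 of 6 fell and 3 rose. The median member changed by -0.37 on the log2 scale and the median gene by 0.06.

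Hoxb9 had 55.7 and 53.6 CPM (counts scaled by library size and not by gene length) in MEFs, 17.0 and 16.1 CPM at day 2 and 11.3 and 12.7 CPM at day 4. The libraries did not overlap at either step. The day 2 change was -1.72 ± 0.0655 (log2 ± SE, n = 2 libraries per group; edgeR quasi-likelihood adjusted p = 3.7e-25). The posterior genes Hoxb13, which acts in the tail and prostate, and Hoxc12 fell by more from lower levels, with 1.19 and 1.02 CPM and 1.22 and 1.10 CPM in MEFs and 0.124 and 0.162 CPM and 0.199 and 0.208 CPM at day 2 (-2.92 and -2.49).

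Hoxd4, a gene of the neck vertebrae, rose at each step, from 2.15 and 2.32 CPM to 6.44 and 6.27 CPM and then to 13.7 and 12.8 CPM, a change of 2.56 ± 0.113 from MEFs to day 4. Its exons overlap those of Hoxd3, which had 1.14 and 1.44 CPM, 1.27 and 1.57 CPM and 3.90 and 3.71 CPM, so the split between the pair is uncertain. Hoxd13 had 30.3 and 28.8 CPM, then 30.7 and 28.7 CPM, then 30.9 and 30.9 CPM. All 6 of these Hoxd13 libraries lay within a narrow band, and the day 4 change was 0.07 ± 0.063 (adjusted p = 0.335).

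Between day 2 and day 4, 24 of 37 members rose and 4 fell, with a median of 0.45, where 77.8% of all genes were called, 39.7% lower and 38.1% higher. In HoxA 9 of 11 and in HoxD 7 of 8 tested members rose, and in HoxB 4 of 9 and in HoxC 4 of 9. Hoxa10 went from 29.8 and 26.0 CPM in MEFs through 19.4 and 19.7 CPM to 54.7 and 58.1 CPM. It was lowest at day 2 and highest at day 4, without overlap. Hoxa9, known for its part in leukaemia and in blood stem cells, stood at 8.57 and 7.77 CPM, 10.1 and 9.21 CPM and 22.6 and 24.1 CPM.

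Against MEFs, day 4 controls had 15 members higher and 11 lower (82.2% of all genes called, 41% lower and 41.2% higher). All 8 called HoxA members and all 6 called HoxD members were higher, while 6 of 7 called HoxB members and all 5 called HoxC members were lower. Hoxb3 was the called HoxB member that was higher (0.29 ± 0.0795). HoxA took 35.6% and 36.2% of Hox TPM at day 4 and HoxB 15.6% and 16.2%. Summed Hox TPM was 339.6 and 329 in MEFs, 245 and 247 at day 2 and 366 and 371 at day 4.

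Markers of other cell types moved with these steps. From MEFs to day 2, 12 of 12 fibroblast markers fell (summed TPM 17720 and 18390, then 9027 and 9153), as did 6 of 6 macrophage markers (352 and 357, then 50.5 and 45.1) and 5 of 5 tested skeletal muscle markers (63.0 and 64.9, then 2.28 and 2.85, with 1 of 6 at 0 in both day 2 libraries). No fibroblast or macrophage marker was at 0 in both libraries of a group. By day 4, 6 of 6 macrophage markers had risen (204 and 197), with 9 fibroblast markers (10410 and 10490). Of 10 tested epithelial markers 3 fell and 4 rose from MEFs to day 2 (76.4 and 71.4, then 142 and 149.8), and 1 fell and 8 rose from day 2 to day 4 (129 and 129). Of 5 tested endothelial markers 2 fell and 1 rose from MEFs to day 2, with a higher sum (7.19 and 8.04, then 32.0 and 31.3), and 1 fell by day 4 (20.5 and 21.0). Of 4 tested neural markers 1 fell and 1 rose from MEFs to day 2 (92.2 and 94.3, then 126 and 127), and 2 fell and 1 rose by day 4 (40.4 and 40), with 1 of 5 at 0 in both libraries of each of these groups. The groups at these steps differed in these markers and in Y-linked RNA as well as in days of doxycycline. The part of each in the Hox changes was not tested, and the parts cannot be told apart.

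**Figure D2:**
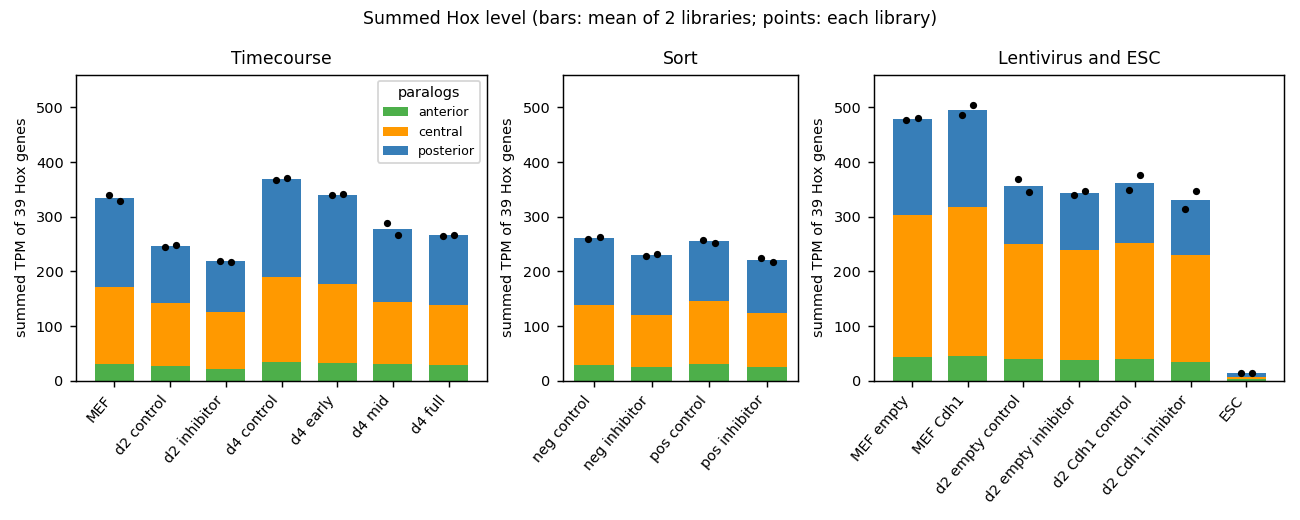
Summed TPM of the 39 members (vertical axis) in each group of the 3 experiments (horizontal axis), with bars for the mean of 2 libraries divided into anterior, central and posterior paralogs and points for each library. Day 4 controls stand at 366 and 371 TPM, the full window at 264 and 267 TPM and ESCs at 14.3 and 15.0 TPM.

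At day 2, SGC0946 lowered 10 of 37 tested members and raised 2, where 17.8% of all genes were called, 9.11% lower and 8.73% higher. The median member changed by -0.20 and the median gene by -0.0046. The strongest decreases lay in HoxD. Hoxd12, which acts in the developing hand and foot, had 2.26 and 1.85 CPM in controls and 1.16 and 0.954 CPM with inhibitor (-0.96 ± 0.195, adjusted p = 0.000319). Hoxd11, a forearm gene, had 1.44 and 2.22 CPM and then 0.891 and 1.11 CPM (-0.87 ± 0.23, adjusted p = 0.00569). Inhibitor libraries were below controls for both genes.

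The other decreases were in the anterior genes Hoxb2 and Hoxb3, the central genes Hoxb7 and Hoxc6, and the posterior genes Hoxa10, Hoxc9, Hoxc10 and Hoxd13, with log2 changes from -0.49 (Hoxa10) to -0.22 (Hoxd13). Hoxa10 had 19.4 and 19.7 CPM in controls and 13.7 and 14.1 CPM with inhibitor. Hoxc6 had 18.0 and 17.2 CPM and then 13.4 and 12.2 CPM, and Hoxb3 had 13.3 and 14.4 CPM and then 10.2 and 10.5 CPM. The groups of all 8 genes were separate. In all, 12 members were called, against 6 without replicate 1 of the controls, 5 without replicate 1 of the inhibitor libraries and 6 in limma on TPM.

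Hoxd8 and Hoxd9, genes of the trunk, were the members that rose at day 2. Hoxd9 had 4.13 and 5.00 CPM in controls and 5.79 and 5.76 CPM with inhibitor (0.34 ± 0.115, adjusted p = 0.0376), and Hoxd8 had 7.49 and 9.07 CPM and then 10.0 and 9.91 CPM (0.27 ± 0.0949, adjusted p = 0.0458). The inhibitor libraries lay above both controls for each gene. Neither increase passed in DESeq2 (adjusted p = 0.0965 for Hoxd9 and 0.135 for Hoxd8). In limma on TPM neither passed (adjusted p = 0.0528 and 0.0563 for Hoxd9, and 0.075 and 0.0737 for Hoxd8). That of Hoxd8 was also lost in edgeR with RLE normalization (adjusted p = 0.0519).

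At day 4, with the inhibitor present from day 0 to 4, 26 of 37 tested members fell and 2 rose, where 34.8% of all genes were called, 15.8% lower and 19% higher. The median member changed by -0.51. The decrease was found in 7 of 11 HoxA, 6 of 9 HoxB, 8 of 9 HoxC and 5 of 8 HoxD members. By zone, 12 of 16 posterior, 11 of 15 central and 3 of 6 anterior members fell. Every paralog of groups 5, 7, 10, 11 and 12 was among them.

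Hoxd12 fell furthest, from 6.24 and 6.27 CPM in day 4 controls to 0.791 and 0.747 CPM, or by 87.7% (-3.02 ± 0.178, adjusted p = 2.01e-17). Hoxc6 went from 25.7 and 26.9 CPM to 15.2 and 13.8 CPM (-0.86 ± 0.0718, adjusted p = 5.92e-13). The groups of both genes lay far apart compared with the spread within them. Hoxa11 had 21.6 and 22.8 CPM and then 12.8 and 12.4 CPM (-0.82 ± 0.074), and Hoxa10 had 54.7 and 58.1 CPM and then 36.4 and 38.9 CPM (-0.58 ± 0.0519).

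Among members at low levels, Hoxc11, a hindlimb gene, had 1.36 and 1.12 CPM in controls and 0.503 and 0.498 CPM with inhibitor (-1.31 ± 0.311). Hoxc12 had 0.755 and 0.560 CPM and then 0.288 and 0.332 CPM (-1.08 ± 0.376, adjusted p = 0.0227, and 0.0698 in DESeq2). In each of these genes, and in Hoxb5 (-0.92) and Hoxb6 (-0.90), both inhibitor libraries were below both controls.

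Hoxd8 rose from 10.3 and 10.3 CPM to 12.1 and 12.3 CPM (0.24 ± 0.0898, adjusted p = 0.0329). Its groups were separate, but the increase did not pass in DESeq2 (adjusted p = 0.114) or in limma on TPM (adjusted p = 0.0826 and 0.0893).

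**Figure D3:**
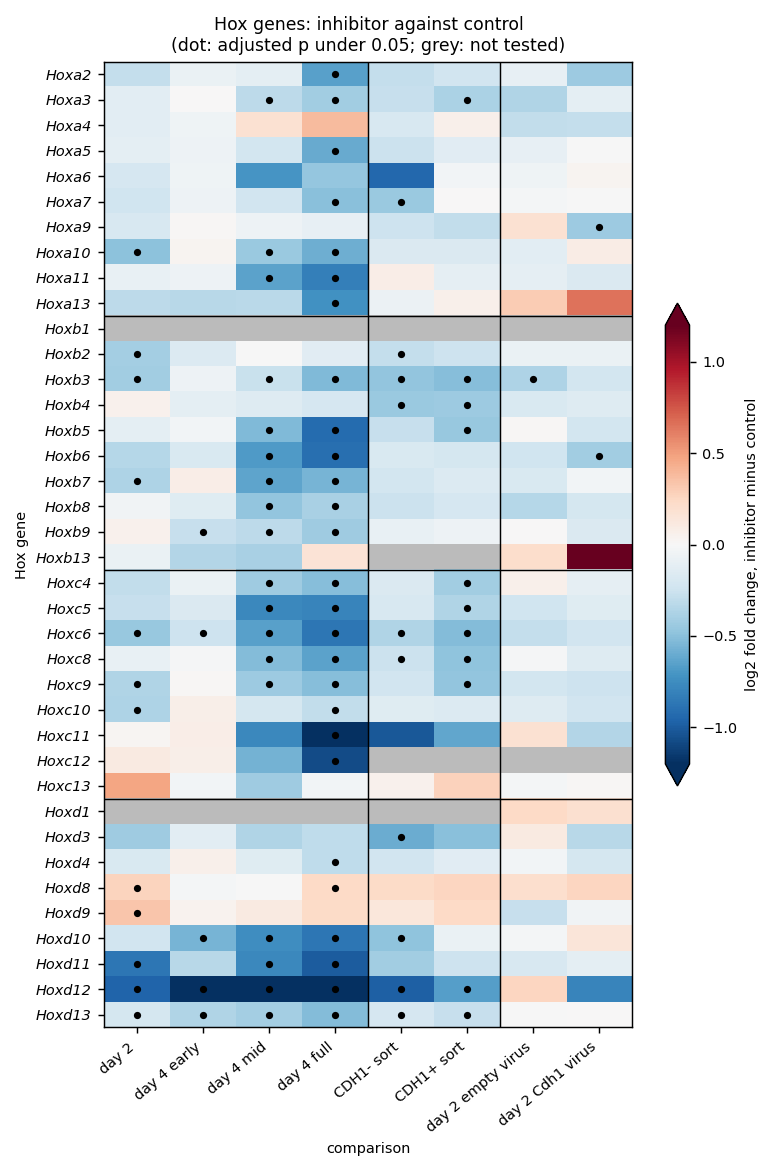
Log2 change with the inhibitor against the matching control (colour, blue lower and red higher) for 38 members (by cluster and paralog number) in 8 comparisons, with a dot where the edgeR adjusted p is under 0.05 and grey where a member was not tested; values beyond the scale take its end colour, and the dark red of Hoxb13 with Cdh1 virus rests on 0 and 1 counts in controls and 1 and 2 with inhibitor and was not called. The full window at day 4 holds the most dots, against 12 at day 2 and 5 after the early window.

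With the inhibitor on days 0 to 2 only, 5 of 37 members were lower and 0 higher at day 4 (5.63% of all genes called, 2.45% lower and 3.19% higher), and the median member stood at -0.06. With days 2 to 4 only, 18 were lower and 0 higher (27.4% of all genes, with 1948 of 14473 genes lower and 14% higher), with a median of -0.41. The 3 windows share their control libraries, so their values are given side by side. The 2 mid libraries agreed less well with each other than those of the other day 4 groups. A chi-square per gene between the 2 libraries of a group was 11.1 for mid, 1.9 for control, 3.25 for early and 3.68 for full. Summed Hox TPM was 288 and 266 in the mid libraries. For Hoxd12 the changes were -1.27 ± 0.144 (early), -1.68 ± 0.157 (mid) and -3.02 ± 0.178 (full).

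The 5 members that were lower at day 4 after the early window were Hoxd12, Hoxd10 (-0.55), Hoxd13 (-0.36), Hoxb9 (-0.27) and Hoxc6 (-0.25). Hoxd12 had 2.51 and 2.68 CPM against 6.24 and 6.27 CPM in controls, and Hoxd10, a lumbar and hindlimb gene, 4.43 and 4.63 CPM against 6.92 and 6.39 CPM. Hoxd13 had 23.5 and 24.5 CPM against 30.9 and 30.9 CPM. These posterior HoxD genes were below both controls in both libraries. Leaving out any of the 4 libraries left 3 members called, and Hoxb9 did not pass in DESeq2 (adjusted p = 0.0505) nor Hoxc6 in limma on TPM (adjusted p = 0.0686).

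Compared directly, the early libraries were higher than the mid libraries in 13 members and lower in 0 (21.2% of all genes called, 10.3% lower and 11% higher). They comprised 7 HoxC, 3 HoxA, 3 HoxB and 0 HoxD members. Hoxc8 had 31.1 and 33.8 CPM in early and 24.2 and 21.7 CPM in mid libraries (0.51 ± 0.0643), and Hoxa11 had 20.9 and 21.7 CPM and 14.1 and 14.3 CPM (0.58 ± 0.075). Early libraries were the higher ones for both genes. The count was 8 without early replicate 1, 8 without early replicate 2 and 8 without mid replicate 2.

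The full window was below the early window in 21 members and above it in 2, where 31% of all genes were called, 14.4% lower and 16.6% higher. Hoxd8 (0.26) was among the higher ones. Against the mid window it was lower in 5 and higher in 0 (20.1% of all genes, 8.51% lower and 11.6% higher). Hoxd12 had 1.85 and 2.04 CPM in mid and 0.791 and 0.747 CPM in full libraries (-1.34). Hoxa2, which patterns the hindbrain and branchial arches, had 2.62 and 3.09 CPM and then 2.16 and 1.80 CPM (-0.54), and Hoxa5 had 8.29 and 7.98 CPM and then 6.16 and 6.36 CPM (-0.38). Full libraries were below mid libraries for all 3, and Hoxb3 (-0.26) and Hoxc6 (-0.21) were also called. DESeq2 called 2 members and limma 3, and the count was 3 without mid replicate 2 and 2 without full replicate 2.

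The inhibitor's effect in the full window differed from its effect at day 2 for 10 members, tested as a difference of the log2 changes in a single model (9.18% of all genes called, 3.57% lower and 5.61% higher). It was more negative at day 4 for 9 of them. Hoxd12 differed most (-2.06 ± 0.278, adjusted p = 7.43e-07), followed by Hoxa11 (-0.73 ± 0.111), Hoxd10 (-0.64 ± 0.197) and Hoxc8 (-0.55 ± 0.0892). Hoxa11 had 10.1 and 11.0 CPM in day 2 controls and 10.6 and 9.20 CPM with inhibitor. Its day 2 groups overlapped, unlike those of day 4 given above. The count of members whose effect differed was 5 without day 2 control replicate 2, 6 without day 4 control replicate 1 and 6 in DESeq2.

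The day 2 and full-window comparisons share no library. Of the 10 members lower at day 2, 9 were also lower in the full window (90% of the former and 34.6% of the latter). This stands beside 26 of all 37 tested members that were lower in the full window. Hoxb2 was the exception, with 8.29 and 7.75 CPM and 6.66 and 5.44 CPM at day 2 (-0.41) and 6.38 and 7.95 CPM and 6.98 and 6.10 CPM at day 4 (-0.13, adjusted p = 0.422). The difference between its day 2 and day 4 effects was not called. Its day 2 decrease did not pass in limma on TPM (adjusted p = 0.112 and 0.106).

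**Figure D4:**
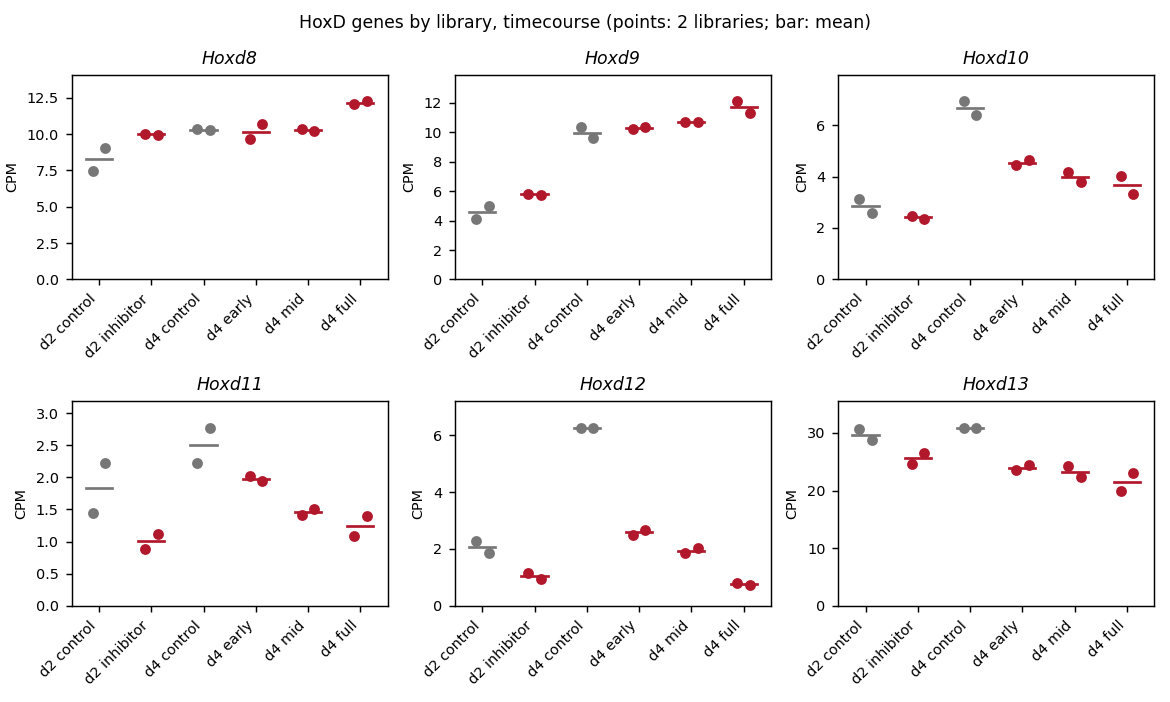
CPM of 6 HoxD members (vertical axes) in each day 2 and day 4 library (points), by group (horizontal axis). Hoxd12 stands at 6.24 and 6.27 CPM in day 4 controls and at 0.791 and 0.747 CPM in the full window, whereas Hoxd8 stands at 10.3 and 10.3 CPM and 12.1 and 12.3 CPM.

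Along HoxD, the changes in the full window ran from Hoxd13 (-0.52) through Hoxd12 (-3.02), Hoxd11 (-1.003) and Hoxd10 (-0.87) to Hoxd9 (0.23), Hoxd8 (0.24), Hoxd4 (-0.31) and Hoxd3 (-0.30). Of these, Hoxd9 (adjusted p = 0.0505) and Hoxd3 (adjusted p = 0.182) did not pass. Hoxd9 had 10.3 and 9.58 CPM in day 4 controls and 12.1 and 11.3 CPM in the full window, and its next neighbour Hoxd10 had 6.92 and 6.39 CPM and then 4.00 and 3.32 CPM. The inhibitor libraries were the higher ones for Hoxd9 and the lower ones for Hoxd10. Evx2, which lies beyond Hoxd13, had a change of -0.93 ± 0.591 (adjusted p = 0.236).

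After sorting by CDH1, the inhibitor lowered Hox genes in both fractions and raised none that passed. In CDH1- cells 10 of 35 tested members fell (18.7% of all genes called, 10.8% lower and 7.82% higher), and in CDH1+ cells 11 fell (18.8%, 10.5% lower and 8.33% higher), with medians of -0.25 and -0.21. These comparisons share no library, and 6 members fell in both (60% of the CDH1- and 54.5% of the CDH1+ decreases), namely Hoxb3, Hoxb4, Hoxc6, Hoxc8, Hoxd12 and Hoxd13.

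Hoxd12 had 4.32 and 4.35 CPM in CDH1- controls and 1.73 and 2.69 CPM with inhibitor (-0.98 ± 0.161, adjusted p = 7.99e-07). In CDH1+ cells it had 4.50 and 3.54 CPM and then 2.63 and 2.47 CPM (-0.66 ± 0.156, adjusted p = 0.000727). Inhibitor libraries were below controls in both fractions. Hoxb3 had 14.13 and 13.51 CPM and then 10.7 and 9.24 CPM in CDH1- cells, and 14.7 and 14.8 CPM and then 11.0 and 9.77 CPM in CDH1+ cells (-0.47 and -0.51). Hoxc8 had 23.1 and 20.7 CPM and then 18.1 and 18.5 CPM in CDH1- cells, and 22.9 and 23.8 CPM and then 16.9 and 16.4 CPM in CDH1+ cells (-0.26 and -0.49). Its groups were separate in both fractions.

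No member's effect was called different between the fractions when the difference itself was tested (0 of 35 in edgeR, 3 at an unadjusted p under 0.05, 0 in DESeq2 and limma, and 0.186% of all genes called, 0.136% lower and 0.0501% higher). For Hoxc8 the difference was -0.23 ± 0.0913 (adjusted p = 0.637). Hoxd8 had 7.32 and 7.62 CPM and then 8.86 and 8.70 CPM in CDH1- cells and 7.28 and 7.09 CPM and then 8.99 and 8.20 CPM in CDH1+ cells. It did not pass in either fraction (adjusted p = 0.102 and 0.061). In CDH1- cells DESeq2 called 5 members, and edgeR 6 without control replicate 1 and 5 without inhibitor replicate 1. In CDH1+ cells DESeq2 called 5, and edgeR 6 without control replicate 1 and 7 without inhibitor replicate 2.

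Between the fractions themselves, 3 members were lower in CDH1+ than in CDH1- controls and 0 higher (26.6% of all genes called, 13.8% lower and 12.8% higher), and with inhibitor 4 were lower and 0 higher (26.8%, with 1859 of 13968 genes lower and 1890 higher). All were posterior members. Hoxd13 had 43.1 and 44.2 CPM in CDH1- and 35.3 and 37.9 CPM in CDH1+ controls (-0.26 ± 0.0503, adjusted p = 2.49e-05), and 37.6 and 38.2 CPM against 31.7 and 28.7 CPM with inhibitor (-0.33 ± 0.0512). CDH1+ libraries were lower in both settings. Hoxa9 was also lower in both (-0.35 and -0.40), Hoxd9 in controls (-0.32), and Hoxa10 and Hoxa11 with inhibitor (-0.17 and -0.22). DESeq2 and limma called 1 member in each setting. Without CDH1+ control replicate 1 the count in controls was 5 and without replicate 2 it was 1, and with inhibitor it was 2 and 1 without CDH1+ replicate 1 and 2.

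Between CDH1+ and CDH1- controls 6 of 6 macrophage markers were higher (summed TPM 17.5 and 16.5, then 105 and 112), as were 10 of 12 epithelial markers (302 and 310.3, then 445 and 443) and 7 of 7 tested pluripotency markers (12.3 and 11.0, then 26.1 and 24.3, with 2 of 12 at 0 in both libraries of each fraction). Fibroblast markers summed to 11930 and 12150 and to 12300 and 12310, with 1 of 12 lower and 3 higher. No macrophage, epithelial or fibroblast marker was at 0 in both libraries. The epithelial list included Cdh1, the gene of the protein used for sorting, so that part of the difference is not independent of the sort. Y-linked genes summed to 22.5 and 21.2 TPM in CDH1- and 27.5 and 29.1 TPM in CDH1+ controls, without overlap. With inhibitor they summed to 20.6 and 21.0 TPM in CDH1- and 28.8 and 26.9 TPM in CDH1+ cells. The part of these markers and of Y-linked RNA in the Hox differences was not tested.

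The Cdh1 lentivirus gave no call among members in MEFs (0 of 37 in edgeR, 8 at an unadjusted p under 0.05, 1.14% of all genes called, 0.525% lower and 0.612% higher) or in day 2 controls (0 of 37, 2 at an unadjusted p under 0.05, 0.897% of all genes, 0.751% lower and 0.146% higher), and DESeq2 and limma also called 0. Without replicate 2 of the Cdh1 MEFs, the library whose source field differs, 0 were called. In MEFs the member with the smallest p was Hoxd4, with 4.76 and 5.09 CPM with the empty virus and 6.51 and 6.33 CPM with Cdh1 (0.38 ± 0.133, adjusted p = 0.257). At day 2 it was Hoxd12, with 0.400 and 0.432 CPM and 0.846 and 0.745 CPM (0.92 ± 0.363, adjusted p = 0.361). With Cdh1, 5 of 6 macrophage markers were lower in MEFs (summed TPM 2732 and 2985, then 1842 and 1590). At day 2, 6 of 6 were lower (407 and 374, then 147 and 139), as were 7 of 12 pluripotency markers (17.2 and 13.1, then 4.32 and 4.43). In these comparisons 0 of them were higher. The part of these markers in the Hox levels was not tested.

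In the day 2 lentivirus cells the inhibitor gave few calls among members. The spread estimated in this fit was larger than in the timecourse (common coefficient of variation 5.56% against 2.95%). Libraries held 18.5 to 35.9 M counts here and 32.9 to 50.9 M in the timecourse. The chi-square per gene was 8 and 13.9 in the inhibitor groups with empty and Cdh1 virus, and 4.84 and 5.21 in their controls. A low count of calls here therefore does not show that the effect was smaller. With the empty virus Hoxb3 fell (1 of 37, 6.73% of all genes called, 3.52% lower and 3.22% higher), from 21.0 and 20.7 CPM to 16.6 and 15.8 CPM (-0.37 ± 0.0923, adjusted p = 0.017). With the Cdh1 virus Hoxa9 and Hoxb6 fell (5.05% of all genes, 2.23% lower and 2.82% higher). Hoxa9 had 6.35 and 6.27 CPM and then 4.63 and 4.72 CPM (-0.43 ± 0.126, adjusted p = 0.0473), and Hoxb6 had 9.47 and 12.0 CPM and then 7.95 and 8.16 CPM (-0.42 ± 0.116, adjusted p = 0.0378). The groups of these 3 genes were separate.

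No member's effect was called different between the viruses (0 of 37 in edgeR, 2 at an unadjusted p under 0.05, 0 in DESeq2 and limma, and 0% of all genes, 0% lower and 0% higher). With the empty virus 0 members were called without any of the 4 libraries. With the Cdh1 virus 0 were called without control replicate 2, 1 without control replicate 1 or without either inhibitor library, and 0 in DESeq2 and limma. Of the 10 members lower at day 2 in the timecourse, 9 had a negative change with the empty virus and 8 with the Cdh1 virus, beside 25 and 27 of all 37 members tested.

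Hoxd12 had 0.400 and 0.432 CPM in day 2 controls with the empty virus and 0.641 and 0.392 CPM with inhibitor. These groups overlapped (0.26 ± 0.431, adjusted p = 0.782). With Cdh1 it had 0.846 and 0.745 CPM and then 0.335 and 0.589 CPM (-0.79 ± 0.335, adjusted p = 0.179). Hoxd8 had 13.7 and 13.8 CPM and then 15.4 and 16.2 CPM with the empty virus, and 13.8 and 14.6 CPM and then 14.9 and 19.1 CPM with Cdh1. Neither difference passed (adjusted p = 0.306 and 0.169).

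From MEFs to day 2 with the empty virus 12 members fell and 5 rose (66% of all genes called, 32.7% lower and 33.4% higher). This comparison shares no library with the same step of the timecourse, and 8 decreases were common to both (40% of the timecourse's and 66.7% of the lentivirus cells'), namely Hoxa10, Hoxa11, Hoxb8, Hoxb9, Hoxc10, Hoxc13, Hoxd10 and Hoxd11. Of the increases, 2 were common (25% and 40%), among them Hoxd4. These overlaps stand beside 20 of 37 tested members that fell and 8 that rose in the timecourse step. Hoxb9 had 63.3 and 60.3 CPM in MEFs and 36.0 and 34.4 CPM at day 2 (-0.81 ± 0.0721), and Hoxd4 had 4.76 and 5.09 CPM and then 9.80 and 9.32 CPM (0.96 ± 0.127).

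Hoxd8 moved in opposite directions in the 2 experiments. It fell here, from 19.4 and 22.8 CPM to 13.7 and 13.8 CPM (-0.62 ± 0.11), and rose in the timecourse, from 6.03 and 7.43 CPM to 7.49 and 9.07 CPM (0.30 ± 0.103). The difference between the experiments was not tested. Y-linked genes summed to 0.24 and 0.14 TPM in these MEFs and 0.06 and 0.1 TPM at day 2. All 6 macrophage markers fell (2732 and 2985, then 407 and 374), and 11 of 12 fibroblast markers fell while 1 rose (18610 and 19410, then 10800 and 11020), with none of either list at 0 in both libraries. Their part was not tested.

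ESCs held little Hox RNA. Summed Hox TPM was 14.3 and 15.0 against 476 and 481 in MEFs with the empty virus, and 35 of 37 tested members were lower and 2 higher (88.7% of all genes called, 44.1% lower and 44.5% higher). The median member stood at -4.78 on the log2 scale, or -4.75 with Hoxc11, which had no count in either ESC library, at its bound. Hoxc8 had 38.8 and 42.3 CPM in MEFs and 0.202 and 0.414 CPM in ESCs (-6.99 ± 0.16), and Hoxb9 had 63.3 and 60.3 CPM and 0.975 and 0.888 CPM (-6.05 ± 0.116). ESC libraries were far below MEF libraries for both. Against a floor of 3 counts over the group, Hoxc11 was at least 7.19-fold lower, and Hoxc12, which was not tested and also had no count, at least 4.78-fold lower.

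Hoxc13 and Hoxd13 were among the members with the smallest decreases in ESCs. Other posterior members were near 0 there. Hoxa13, at the posterior end of HoxA, was counted 0 and 2 times and Hoxd12 1 and 2 times, and Hoxc11 and Hoxc12 had no count. Hoxc13, a gene of hair and nails, had 1.62 and 1.42 CPM in ESCs against 3.57 and 4.19 CPM in MEFs (-1.36 ± 0.209), and Hoxd13 had 2.15 and 2.25 CPM against 7.96 and 7.42 CPM (-1.80 ± 0.149). Both remained below the MEF libraries. Hoxb13 was counted 28 and 25 times in ESCs and 2 and 1 times in MEFs, Hoxd1 12 and 12 times against 4 and 1, and Hoxb1, not tested, 10 and 10 times against 0 and 1. ESC libraries were the higher ones for these 3 genes, of which Hoxd1 did not pass in DESeq2 (adjusted p = 0.135). All 12 fibroblast markers were lower in ESCs, at a summed 385 and 428 TPM, with none at 0 in both libraries, and the part of remaining feeder RNA was not tested.

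Members that failed the filter on low counts were few. Hoxb1 never had more than 1 count in a timecourse or sort library and had at most 10 in the lentivirus and ESC libraries, and Hoxd1 had at most 8 in the timecourse and 6 in the sort. In the sort Hoxb13 had at most 5 and Hoxc12 at most 12 counts, and Hoxc12 had at most 7 in the lentivirus libraries. These genes were not tested there, and Hoxb1 and Hoxc12 are described for ESCs by their counts alone.

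Hox proteins bind DNA with TALE cofactors of the MEIS, PBX and PKNOX families. The counts of the lists that follow stand beside 17.8% of all genes called with the inhibitor at day 2 and 34.8% in the full window. The shares called in the Polycomb list and in the Trithorax and MLL list were near these. With the inhibitor at day 2, 1 of 9 TALE genes fell and 1 rose, and in the full window 2 fell and 2 rose. In the full window Meis2 went from 45.7 to 34.1 CPM (mean of 2 libraries; -0.42 ± 0.0492) and Meis1 from 23.9 to 19.2 CPM (-0.32 ± 0.0703), while Pknox2 went from 4.20 to 6.14 CPM (0.55 ± 0.114). Of 15 genes in the Trithorax and MLL list, 3 fell and 0 rose at day 2, and 5 fell and 1 rose in the full window. Those that fell in the full window included Dpy30, a subunit of Trithorax and MLL complexes (-0.34 ± 0.05). The list also held Mllt and Aff genes, fusion partners of MLL that are not subunits of these complexes. Of 20 Polycomb genes, 3 fell and 2 rose at day 2, and 3 fell and 5 rose in the full window. Of 6 genes for H3K27 demethylases and linker factors such as cohesin, 2 fell at day 2 and 1 in the full window, and none rose.

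Beside the same 17.8% and 34.8% of all genes called, of 21 limb and positional regulators outside the clusters 5 fell and 4 rose at day 2, and 8 fell and 3 rose in the full window. Meox2, a regulator of limb muscle, went from 35.7 to 15.8 CPM in the full window (mean of 2 libraries; -1.17 ± 0.0664), Twist2, a dermal gene, from 13.6 to 6.72 CPM (-1.02 ± 0.0782) and Tbx15, a limb and skin gene, from 135 to 91.5 CPM (-0.56 ± 0.0364). Of 6 tested upstream regulators of the clusters, 2 fell and 1 rose at day 2, and 1 fell and 1 rose in the full window. Cyp26b1, which degrades retinoic acid, an inducer of Hox genes, changed by -0.42 ± 0.0682 at day 2 and by -0.46 ± 0.0776 in the full window.

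Of 22 tested genes that flank the clusters, 1 fell and 1 rose at day 2, and 5 fell and 2 rose in the full window. Their median changes were -0.02 and -0.06, beside -0.20 and -0.51 for the members. In the full window the smallest p-values were those of Ttll6 beside HoxB (0.78 ± 0.171), Cbx5 beside HoxC (-0.20 ± 0.0419) and Cbx3 beside HoxA (-0.15 ± 0.0353). The difference between members and flanking genes was not tested.

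Markers of other cell types moved with the inhibitor as well, though not alike in every experiment. At day 2, 9 of 10 tested epithelial markers rose (summed TPM 142 and 149.8 in controls, then 212 and 202), and in the full window 10 of 10 rose (129 and 129, then 279 and 272). The early and mid windows stood at 143 and 142 and 175 and 185, with 1 of 12 at 0 in both libraries of each. In CDH1- and CDH1+ cells 10 and 9 of 12 rose (302 and 310.3, then 405 and 405, and 445 and 443, then 577 and 569). In day 2 lentivirus cells 1 of 12 rose with the empty virus (84.7 and 80.7, then 79.5 and 87.4). With the Cdh1 virus 0 of 12 were called (135 and 132, then 131 and 129), with 1 at 0 in both control libraries. These sums include Cdh1, the gene that this virus carries. The part of these epithelial changes in the Hox decreases was not tested.

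Fibroblast markers rose in 5 of 12 at day 2 and fell in 0 (summed TPM 9027 and 9153, then 9293 and 9307). In the full window 4 fell and 6 rose (10410 and 10490, then 11200 and 10960). In CDH1- cells 5 fell and 1 rose (11930 and 12150, then 11670 and 11380), and in CDH1+ cells 3 fell and 1 rose (12300 and 12310, then 12030 and 11900). Macrophage markers were called in 0 of 6 at day 2, and 2 of 6 fell in the full window (204 and 197, then 181 and 182). In the early and mid windows 2 and 1 fell (166 and 161, and 198 and 206). In CDH1- cells 1 fell (17.5 and 16.5, then 14.1 and 12.0) and in CDH1+ cells 3 (105 and 112, then 78.9 and 78.1), and no macrophage marker rose in these comparisons. In day 2 lentivirus cells 3 of 6 fell with the empty virus (407 and 374, then 324 and 328). With the Cdh1 virus 0 of 6 were called (147 and 139, then 156 and 147). Of 12 fibroblast markers 2 fell and 2 rose with the empty virus, and 0 fell and 2 rose with the Cdh1 virus. Of 5 tested endothelial markers 1 fell and 2 rose in the full window, with a lower sum (20.5 and 21.0, then 13.6 and 14.8), and of 4 tested neural markers 1 fell and 2 rose (40.4 and 40, then 51.4 and 49.4). The part of these markers in the Hox decreases was not tested.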

How the data were processed

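RNA was sequenced from 36 libraries in 3 experiments. Per the submitters' processing notes, Trimmomatic, Bowtie and RSEM 1.2.4 were used with the builds mm9 and hg18. Per the labels 20 ng of human 293T RNA was added in the timecourse and sort, and it was not used for scaling here. The authors deposited RSEM expected counts per gene, which were rounded to whole numbers here, and TPM, which was used as deposited for levels between genes. The members and gene lists were chosen with earlier results of these data known.

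Counts were tested in R 4.3.3 with edgeR 4.0.16 (TMM normalization, robust quasi-likelihood test, Benjamini-Hochberg adjustment over all genes, threshold 0.05), in 3 fits: the timecourse (14473 genes after the low-count filter, minimum count 10, minimum total 15), the sort (13968 genes) and the lentivirus libraries with ESCs (15044 genes). Each fit used all its groups to estimate the spread. CPM is the expected count scaled by the TMM library size, and an SE is the log2 change divided by the square root of its F statistic. With 2 libraries per group, precision rests on this shared spread. The scripts were tested on simulated data.

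Alternatives were RLE normalization, no low-count filter, a replicate block, DESeq2 1.42.0, limma 3.58.1 on log2(TPM + 1) and log2(TPM + 0.1), only the compared groups, and leaving out each library. By rule, values by library were given for the 3 highest members per cluster in timecourse MEFs and, per comparison, for up to 6 members with the lowest and 4 with the highest change among those called without overlap, and for pathway lists up to 3 genes with the smallest p. Members followed across groups beyond that rule (such as Hoxd8, Hoxd9, Hoxd12 and Hoxd13) were chosen after their values were seen. Values of some genes by name are not reported here. Exon overlaps were read from GENCODE and promoters from RefSeq, and since the files use another build no expression value was joined by coordinates.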

Additional observations from a re-analysis of the deposited data

Results flagged for a closer look

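The inhibitor's effect on 9 members was more negative at day 4 (full window) than at day 2, by a test of the difference of the log2 changes in edgeR. The difference, day 4 effect minus day 2 effect, was -2.06 ± 0.278 for Hoxd12 (adjusted p = 7.43e-07), -0.73 ± 0.111 for Hoxa11 (adjusted p = 7.63e-06) and -0.55 ± 0.0892 for Hoxc8 (adjusted p = 1.85e-05). It was -0.64 for Hoxd10, -0.52 for Hoxc5, -0.49 for Hoxa5, -0.48 for Hoxb9, -0.41 for Hoxc6 and -0.31 for Hoxd13, with adjusted p-values from 0.00134 (Hoxb9) to 0.0475 (Hoxc5). In DESeq2 Hoxa5 (adjusted p = 0.0686), Hoxc5 (0.146) and Hoxd10 (0.107) were among those that did not pass.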

How the results depend on the processing

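No named member's change reversed in sign under any alternative run. Counts of called members moved by over 1.5 times as follows. With DESeq2 they were 2 for full against mid, 6 for the day 4 minus day 2 effect, 5 in CDH1- and 5 in CDH1+ cells, 1 and 1 between the fractions (controls, inhibitor) and 0 for the inhibitor with Cdh1 virus. With limma (either pseudocount) they were 6 for the inhibitor at day 2, 3 for full against mid, 1 and 1 between the fractions and 0 with Cdh1 virus, and with the pseudocount 0.1 the count was 0 with empty virus. Fitting only the compared groups gave 6 between control fractions, 2 with empty and 0 with Cdh1 virus. The causes were not tested. The labels' replicate numbers were not taken to pair the samples, since not every pair's correlation was over 0.1: same-numbered libraries' deviations correlated from -0.279 to 0.198 in the timecourse, -0.181 to 0.15 in the sort (median 0.11, 4 of 6 pairs over 0.1) and -0.248 to 0.291 in the lentivirus fit. With the replicate block the counts were 12 for the inhibitor at day 2, 29 for the full window, 9 and 11 in CDH1- and CDH1+ cells, 2 and 3 between the fractions, 9 for the day 4 minus day 2 effect and 1 with Cdh1 virus. Among the calls it ended were Hoxd9 and Hoxa10 between the fractions (adjusted p = 0.0549 and 0.0534), Hoxd3 in CDH1- cells (0.0515), Hoxc5 in the day 4 minus day 2 effect (0.0708) and Hoxa9 with Cdh1 virus (0.0529). Leaving out 1 library at a time gave 5 to 10 for the inhibitor at day 2, 23 to 27 for the full window, 3 to 3 for the early window, 14 to 17 for the mid window, 23 to 24 for day 2 against MEFs, 24 to 26 for day 4 against MEFs, 22 to 25 for day 4 against day 2, 19 to 21 for full against early, 2 to 5 for full against mid, 8 to 13 for early against mid, 5 to 9 for the day 4 minus day 2 effect, 5 to 10 for the inhibitor in CDH1- cells, 6 to 9 for the inhibitor in CDH1+ cells, 1 to 5 for CDH1+ against CDH1- controls, 1 to 3 for CDH1+ against CDH1- with inhibitor, 0 to 0 for the inhibitor with empty virus, 0 to 1 for the inhibitor with Cdh1 virus, 12 to 17 for day 2 against MEFs with empty virus, 35 to 37 for ESCs against MEFs, and 0 for the 4 comparisons with no call. Of single members' alternatives that kept all libraries, 736 kept their call and 96 lost it, and with 1 library left out 378 kept it and 125 lost it. Members under about 1 CPM, among them Hoxb1, Hoxd1 and Hoxc12, are limited by depth.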
